A study of Mus musculus with 16 samples.

Results

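The keratin genes were read from RNA of laser-captured mouse tissue as 50 features that carry 52 keratin symbols, of 23234 features in each of 2 deposited tables. Members were taken by a rule on the gene symbol, namely Krt followed by a number and at most 1 letter. The choice was made with earlier results of these data known. The study captured the dorsal and the ventral part of the cloaca at E10.5, and the hindgut (dorsal) and the urethra (ventral) at E13.5. All 4 groups came from wild-type CD1 male embryos, CD1 being an outbred stock, with no treatment or transgene named, and each group held 4 libraries. By the sample names, each of 4 codes per age, taken here as embryos, gave both of its regions, and no name says that a sample was pooled. Several codes share a first part that the names do not explain. The tables give 1 value per feature for each region and age, in FPKM, a fragment count corrected for transcript length and library size, and no value per library. Spread between embryos is therefore unknown, no difference below has a test or a replicate check, and whether the libraries of 2 regions overlap cannot be read from these values. The depth of the libraries is unknown. In bulk tissue, fewer cells of a type and less RNA per cell cannot be told apart.

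Keratins are the intermediate filament proteins of epithelial cells, and a filament needs 1 acidic type I and 1 basic type II chain. Simple epithelia such as gut lining use Krt8 and Krt18, often with Krt19 and Krt7, while the basal layer of stratified epithelia such as skin and urethra uses Krt5 with Krt14 or Krt15. Upper layers, appendages and injured skin use further pairs, which makes keratins a common readout of what kind of epithelium a tissue holds. In the mouse the type I genes lie together on chromosome 11 and the type II genes on chromosome 15, where Krt18, a type I gene, sits at the end of the type II row. Of the 50 features 28 were type I and 22 type II, with 27 on chromosome 11 and 23 on chromosome 15.

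At E10.5 both parts of the cloaca carried the keratins of simple epithelium at high level, and of the basal keratins only the ventral part listed 1 FPKM or more. By E13.5 both hindgut and urethra held a basal and appendage set beside the simple one, and the urethra held more Krt5, Krt14, Krt4, Krt6a and Krt75, while the hindgut held more Krt19. Of the 50 features, 7 reached 1 FPKM in the dorsal cloaca, 10 in the ventral cloaca, 19 in the hindgut and 16 in the urethra. The FPKM of all features summed to 433416 and 424724 in dorsal and ventral cloaca, and to 708752 and 661939 in hindgut and urethra. A cut of 1 FPKM therefore need not mean the same at both ages, and the counts are not compared between them. There were 19 features with at least 1 FPKM in some region, and all 19 are described here with each of their 4 values. Of the remaining 31, none exceeded 0.90 FPKM and 11 were listed at 0 in all 4 columns.

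**Figure D1:**
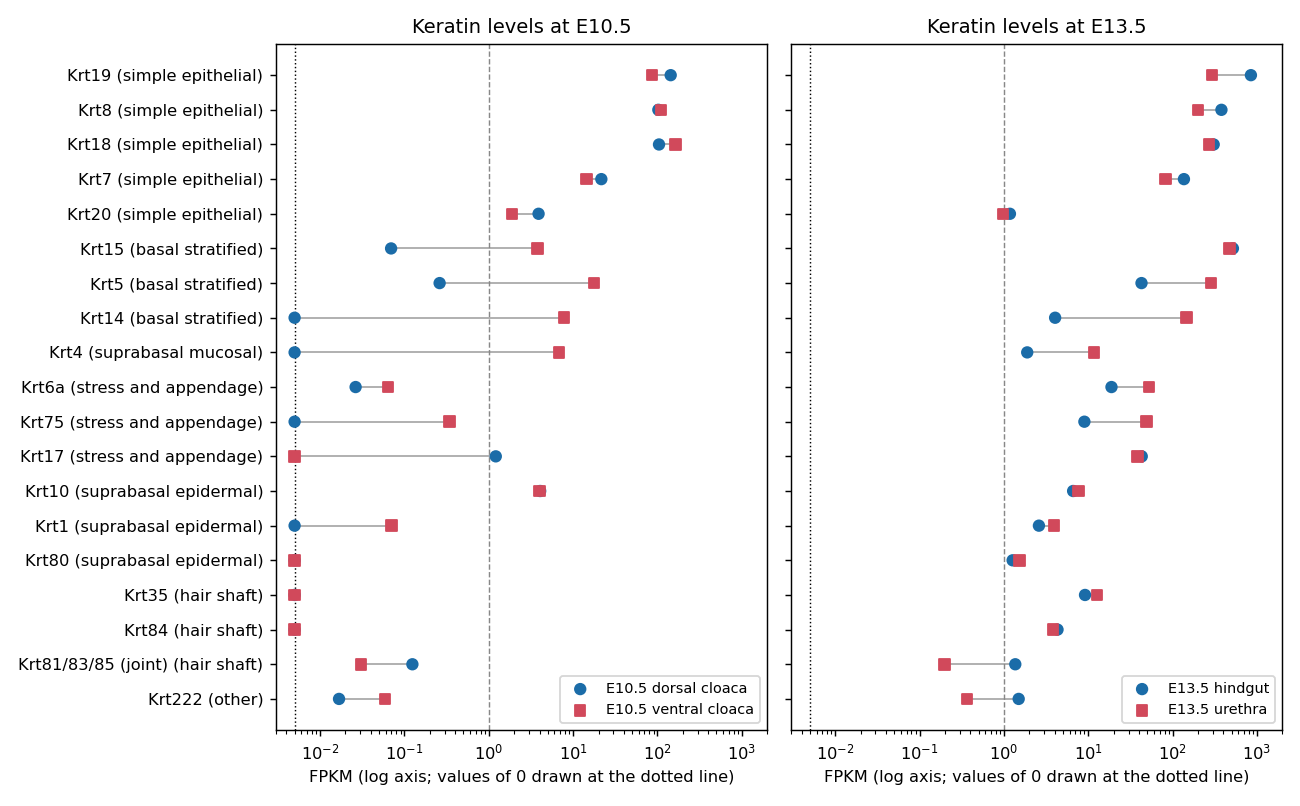
FPKM of the 19 keratin features that reach 1 FPKM in some region, on a log axis, at E10.5 (left) and E13.5 (right), with 1 point per region and no error since the tables hold 1 value per region. The simple keratins Krt8, Krt18 and Krt19 lie at 86.2 FPKM or more in every region, whereas Krt5, Krt14 and Krt4 lie further right in ventral cloaca and urethra at both ages.

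Differences between regions are given on the log2 scale as ventral minus dorsal of log2(FPKM + 1), and a feature was called when it had at least 1 FPKM in either region and differed by 1 or more (2-fold on this scale). This is a rule of size, not of significance, and the added 1 understates the change of low genes. At E10.5, 11 of the 50 features had 1 FPKM in either region, and 4 of them (36.4%) were at least 2-fold higher ventrally, against 10.6% of the 12379 features kept in the whole table. The 4 were Krt5, Krt14, Krt15 and Krt4. Krt17 was the 1 feature called dorsally (9.09%), against 9.62% of all kept features, and 6 were within 2-fold. Each of the 5 called members passed the minimum only in the region where it was higher, so the share called is a description and supports nothing. At E13.5, 19 features were kept and 5 of them (26.3%) were at least 2-fold higher in urethra, against 4.16% of the 12369 features kept. These were Krt5, Krt14, Krt4, Krt6a and Krt75, and each had more than 1 FPKM in both regions. Krt19 alone was called for the hindgut (5.26%, against 4.59% of all kept features), and 13 features were within 2-fold. The shares called dorsally lay near the background at both ages. The split of 5 for urethra against 1 for hindgut at E13.5 was 5 against 2 after quantile normalization and 5 against 3 after each column was rescaled to the same sum. Krt5, Krt14 and Krt4 were called ventrally at both ages, and no feature was called dorsally at both. Over the kept keratins the median difference came to 0.10 at E10.5 and -0.13 at E13.5, beside 0.04 and 0.01 over all kept features.

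**Figure D2:**
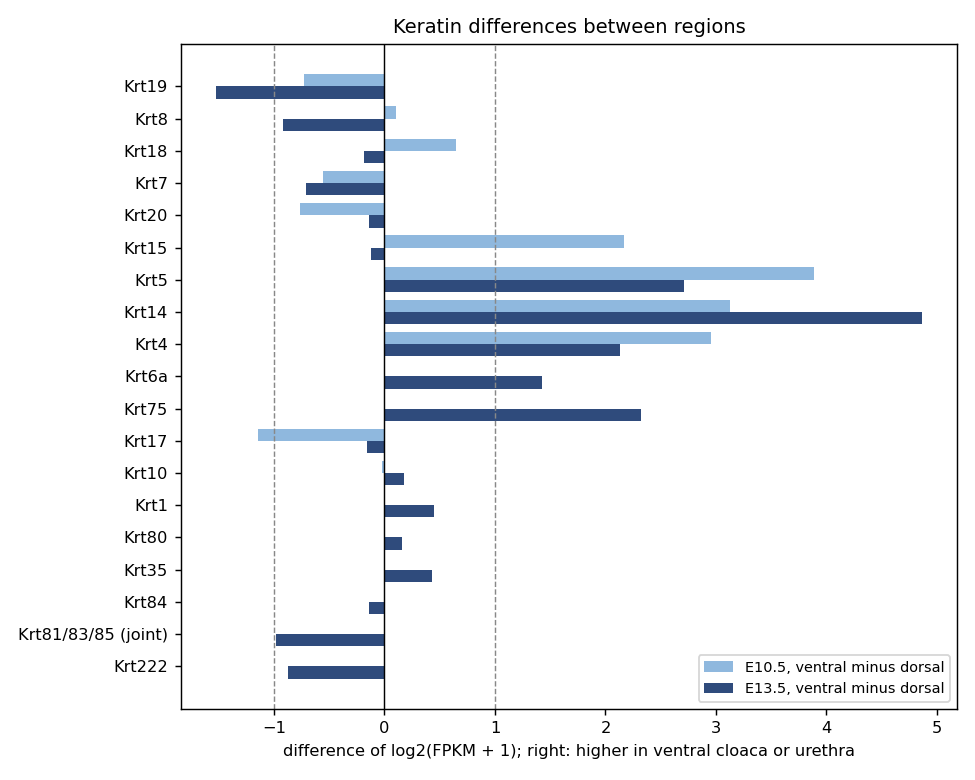
Difference of log2(FPKM + 1), ventral minus dorsal, for the 19 named keratin features at E10.5 (light bars) and E13.5 (dark bars), with dashed lines at the 2-fold rule and no bar where a feature is below 1 FPKM in both regions of that age. Bars of Krt5, Krt14 and Krt4 pass the right line at both ages, from 2.13 for Krt4 to 4.87 for Krt14 at E13.5, while Krt15 passes it at E10.5 alone and Krt19 passes the left line at E13.5 alone.

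The simple epithelial keratins carried most of the keratin FPKM in both parts of the cloaca and in hindgut, but 43.7% of it in urethra. Krt8, the type II chain of simple epithelium, had 102 FPKM in dorsal and 110 FPKM in ventral cloaca, and 378 FPKM in hindgut against 199 FPKM in urethra. Its partner Krt18, a type I chain, had 104 FPKM dorsally and 164 FPKM ventrally at E10.5, and 306 FPKM in hindgut against 270 FPKM in urethra. Both genes were within 2-fold at either age, with log2 differences of 0.10 and 0.65 at E10.5 and of -0.92 and -0.18 at E13.5. Krt19, the shortest type I keratin, which lacks a tail domain, had 143 FPKM dorsally and 86.2 FPKM ventrally at E10.5. In hindgut it reached 846 FPKM, the highest keratin value in the tables, and in urethra 293 FPKM. Its log2 difference went from -0.73 at E10.5 to -1.53 at E13.5, and the ratio of Krt19 to Krt8 FPKM was 1.40 dorsally and 0.78 ventrally at E10.5, and 2.24 in hindgut and 1.47 in urethra. Krt7, a type II chain of ducts and urothelium, had 21.6 FPKM dorsally against 14.4 FPKM ventrally, and 136 FPKM in hindgut against 82.6 FPKM in urethra. Both log2 differences stayed within the rule, at -0.55 and -0.71. Krt20, a marker of mature gut lining and of the top cells of urothelium, was low everywhere, with 3.90 FPKM dorsally, 1.88 FPKM ventrally, 1.18 FPKM in hindgut and 0.98 FPKM in urethra. Krt23, the sixth gene of this list, was listed at 0 at E10.5 and stood at 0.25 and 0.27 FPKM in hindgut and urethra. Hindgut markers, a list that holds no keratin, summed to 583 FPKM in hindgut and 6.35 FPKM in urethra, and their part in the Krt19 difference was not tested. Of the 5 list members kept at each age, none was called at E10.5 (median -0.55) and Krt19 alone at E13.5 (median -0.71).

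Summed over the 6 genes, simple keratins gave 376 FPKM dorsally and 377 FPKM ventrally at E10.5, and 1668 FPKM in hindgut against 846 FPKM in urethra. The balance of type I to type II chains depended on the genes counted. Krt18 had 1.02 times the FPKM of Krt8 in dorsal cloaca, 1.495 times in ventral cloaca, 0.81 times in hindgut and 1.35 times in urethra. Krt18 and Krt19 together had 2.00 times the FPKM of Krt7 and Krt8 together in dorsal cloaca, 2.02 times in ventral cloaca, 2.24 times in hindgut and 2.00 times in urethra. Epcam, an epithelial surface protein, had 237 and 184 FPKM in dorsal and ventral cloaca, and 377 and 235 FPKM in hindgut and urethra. Cdh1, the epithelial cadherin, had 127 and 90.1 FPKM at E10.5, and 246 and 124 FPKM at E13.5, a log2 difference of -0.98 at the later age. Their part in the lower Krt8, Krt7 and Krt19 values of the urethra was not tested.

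Of the basal keratins, Krt5 and Krt14 had the widest log2 differences among the named keratins at both ages, and Krt15 did not. Krt5, the type II chain of basal cells in stratified epithelium (XLOC_007413, chromosome 15 from 101707070 to 101712891 on mm10), had 0.26 FPKM in dorsal cloaca and 17.7 FPKM in ventral cloaca, a log2 difference of 3.89. At E13.5 it had 42.7 FPKM in hindgut and 286 FPKM in urethra, a log2 difference of 2.71. Krt14, its main type I partner (XLOC_003854, chromosome 11 from 100203162 to 100207510), was listed at 0 dorsally, where no fold can be given, and at 7.76 FPKM ventrally. It then had 4.04 FPKM in hindgut and 146 FPKM in urethra, a ratio of 36.1 and a log2 difference of 4.87. Krt15, a type I keratin of basal cells and of resting stem cells in the hair follicle (XLOC_003851, chromosome 11 from 100131759 to 100135949), had 0.070 FPKM dorsally and 3.80 FPKM ventrally at E10.5, a log2 difference of 2.17. At E13.5 it had 517 FPKM in hindgut and 474 FPKM in urethra, a log2 difference of -0.13. Krt5 and Krt14 thus stood apart between the regions at both ages, and Krt15 did so at E10.5 only.

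The make-up of the basal set differed from region to region. In ventral cloaca Krt5 gave 60.4% of the summed FPKM of Krt5, Krt14 and Krt15, Krt14 26.5% and Krt15 the rest. In urethra Krt15 gave 52.3%, Krt5 31.5% and Krt14 16.1%. In hindgut Krt15 gave 91.7% and Krt5 7.57%, and Krt14 gave 0.72%. The ratio of Krt14 to Krt5 FPKM was 0.44 in ventral cloaca, 0.51 in urethra and 0.095 in hindgut. Krt15 had 12.1 times the FPKM of Krt5 in hindgut and 1.66 times in urethra. In the hindgut the type I chains Krt14 and Krt15 together had 12.2 times the FPKM of Krt5, against 2.17 times in urethra.

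Summed keratin FPKM came to 382 in dorsal and 418 in ventral cloaca, and to 2334 in hindgut and 1936 in urethra. How the tables scale against each other is unknown, so the ages are set side by side as shares within a region. Per 1000000 of a column's summed FPKM, keratins made up 880 and 984 at E10.5 and 3293 and 2925 at E13.5. Simple keratins gave 98.4% of the keratin FPKM in dorsal cloaca, 90.1% in ventral cloaca, 71.5% in hindgut and 43.7% in urethra. Basal keratins gave 0.087%, 6.99%, 24.2% and 46.8% in the same order, so that in the urethra they exceeded the simple set. The ratio of Krt5 to Krt8, the type II chains of the basal and simple sets, was 0.0026, 0.16, 0.11 and 1.44. A few genes held nearly all of it, since the 5 highest features gave 98.5% of the keratin FPKM in dorsal cloaca, 93.9% in ventral cloaca, 93.6% in hindgut and 78.6% in urethra. Type I genes gave 67.4%, 64.3%, 74.4% and 64.3% of the total.

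**Figure D3:**
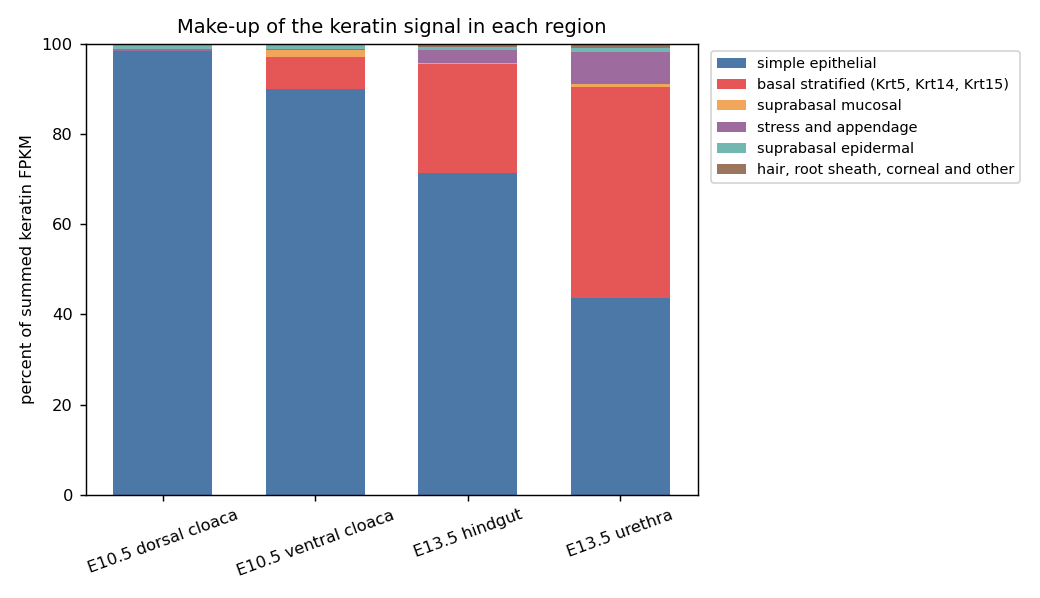
Percent of the summed keratin FPKM of each region held by the lists of keratins, stacked to 100%, 1 bar per region. The simple epithelial share is 98.4% in dorsal cloaca and 43.7% in urethra, and the basal share is 0.087% and 46.8%.

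Promoter sequence is shown for the pair that both regions shared, Krt8 and Krt18, and for Krt5 and Krt75, which were higher in urethra. Each run covers 220 bases before the RefSeq start and 10 bases from it on, 5′ to 3′ on the gene's strand, from the GRCm38.p6 promoter windows of RefSeq. The regions are chr15:102004333-102004562 for Krt8, chr15:101712896-101713125 for Krt5 and chr15:101573895-101574124 for Krt75, all on the minus strand, and chr15:102027996-102028225 on the plus strand for Krt18. Capitals mark matches to any of the motifs named in the next paragraph.
Krt8: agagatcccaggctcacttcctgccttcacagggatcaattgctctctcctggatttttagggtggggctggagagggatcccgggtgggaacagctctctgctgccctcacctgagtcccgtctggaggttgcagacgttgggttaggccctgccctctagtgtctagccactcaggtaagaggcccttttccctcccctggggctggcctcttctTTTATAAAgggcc
Krt18: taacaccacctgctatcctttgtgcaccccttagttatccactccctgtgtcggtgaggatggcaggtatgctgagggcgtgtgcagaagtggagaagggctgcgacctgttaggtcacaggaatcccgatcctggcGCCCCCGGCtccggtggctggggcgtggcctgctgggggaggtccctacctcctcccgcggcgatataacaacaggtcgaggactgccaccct
Krt5: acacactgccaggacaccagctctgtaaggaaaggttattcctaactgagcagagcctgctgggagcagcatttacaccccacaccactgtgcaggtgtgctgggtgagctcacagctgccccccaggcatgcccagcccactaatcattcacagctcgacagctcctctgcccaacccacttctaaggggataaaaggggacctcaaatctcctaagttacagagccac
Krt75: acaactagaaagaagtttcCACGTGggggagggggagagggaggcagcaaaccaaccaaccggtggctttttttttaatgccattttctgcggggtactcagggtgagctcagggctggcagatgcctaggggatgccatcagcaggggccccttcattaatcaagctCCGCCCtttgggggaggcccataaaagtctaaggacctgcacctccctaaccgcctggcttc

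The 6 motifs were searched on both strands of the full windows, which hold 250 bases before and 50 after the start. RefSeq windows were found for 35 of the keratin genes (36 windows), 9 of them among the named ones. The Krt14 window and 1 of the 2 Krt13 windows lie inside their loci in the tables and not at the ends. Neither is shown, but both are among the 36 windows counted. The TATA box TATAAA was in 19 of the 36 keratin windows (52.8%) and in 13.6% of all 32807 windows. Among the 9 named genes it was in the windows of Krt10, Krt20, Krt84 and Krt8. The Krt84 match began 206 bases before the start, and the Krt8 matches 3 bases and 1 base before it. The other matches were in windows of keratins below 1 FPKM in every region. The GC box GGGCGG was in 2 keratin windows and 35.6% of all, and the AP-2 motif GCCNNNGGC in 6 keratin windows and 16.6% of all. The AP-1 motif TGANTCA was in 2 keratin windows, both of Krt13, and 7.82% of all, the E-box CACGTG in 3 and 7.15%, and the octamer ATGCAAAT in 0 and 1.74%. In the runs above, the Krt8 capitals are TATAAA matches on either strand that overlap each other, those of Krt18 are an AP-2 motif match, and those of Krt75 are an E-box and a GC box. The Krt5 window holds none of these letter strings. Keratin genes arose by local duplication, so their windows are not independent of each other, and a match is a description of letters, not of a bound factor.

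Keratins of upper mucosal layers, of appendages and of stressed skin are described next. Krt4, a type II chain of the upper layers of internal stratified epithelia, was listed at 0 in dorsal cloaca and at 6.77 FPKM in ventral cloaca. It had 1.89 FPKM in hindgut and 11.7 FPKM in urethra, a log2 difference of 2.13. Its usual type I partner Krt13 was listed at 0 in both cloacal regions and stood at 0.058 FPKM in hindgut and 0.060 FPKM in urethra, far below Krt4. The other genes of the mucosal list, Krt24, Krt76 and Krt78, reached 0.39 FPKM at most.

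Krt6a, a type II chain of hair follicle, mucosa and wounded skin, was below 0.10 FPKM at E10.5, with 0.026 and 0.064 FPKM. At E13.5 it had 18.8 FPKM in hindgut and 52.3 FPKM in urethra, a log2 difference of 1.43. Krt75, a type II chain of the hair follicle's companion layer, was listed at 0 in dorsal cloaca and at 0.34 FPKM in ventral cloaca, and had 8.98 FPKM in hindgut and 48.9 FPKM in urethra, a log2 difference of 2.32. Both were thus higher in urethra at the later age. Krt17, a type I chain of appendages and of epithelium under stress, had 1.21 FPKM in dorsal cloaca and was listed at 0 ventrally, a single low value on which its dorsal call rests. It had 43.0 FPKM in hindgut and 38.4 FPKM in urethra, a log2 difference of -0.16. Krt16, the other type I chain of stressed skin, was listed at 0 in 3 regions and had 0.012 FPKM in urethra, and Krt6b had 0.0062 FPKM there and was listed at 0 elsewhere. This list summed to 70.8 FPKM in hindgut and 140 FPKM in urethra, or 3.03% and 7.22% of the keratin FPKM.

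The epidermal differentiation keratins stayed low. Krt10, the type I chain of cornifying epidermis, had 4.07 FPKM in dorsal and 3.997 FPKM in ventral cloaca, and 6.61 and 7.61 FPKM in hindgut and urethra. Its partner Krt1 was listed at 0 dorsally and had 0.071 FPKM ventrally at E10.5, then 2.60 FPKM in hindgut and 3.91 FPKM in urethra. Krt80, a type II chain found widely in epithelia, was listed at 0 in both parts of the cloaca and had 1.27 and 1.53 FPKM at E13.5. None of these 3 was called at either age. Krt2, of the upper epidermis, reached 0.48 and 0.90 FPKM in hindgut and urethra.

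Among the hair keratins 2 genes stood out at E13.5, in both regions alike. Krt35, a type I chain of the hair cortex and matrix, was listed at 0 in both cloacal regions and had 9.14 FPKM in hindgut and 12.7 FPKM in urethra, a log2 difference of 0.43. Krt84, a type II hair keratin known from tongue and nail, was likewise listed at 0 at E10.5 and had 4.31 and 3.81 FPKM at E13.5. Neither was called between the regions. A joint feature of 5430421N21Rik, Krt81, Krt83 and Krt85 had 0.12, 0.031, 1.36 and 0.20 FPKM in dorsal cloaca, ventral cloaca, hindgut and urethra. Its log2 difference of -0.98 at E13.5 lay just short of the 2-fold rule and passed it at -1.05 after quantile normalization. Its span is also that of the Krt86 feature, which was listed at 0 throughout, so its reads cannot be given to 1 gene. The other 10 hair shaft features stayed at or below 0.76 FPKM, the level of Krt31 in hindgut, and all 8 inner root sheath features stayed at or below 0.15 FPKM. Krt222, a keratin-like gene of the type I cluster, had 0.017, 0.059, 1.49 and 0.36 FPKM in the same order.

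The expressed genes were spread along both rows. The chromosome 11 row spans 1037 kb and the chromosome 15 row 682 kb on mm10. Krt15 and Krt19 are neighbours with 4.86 kb between them, and in hindgut they were the 2 highest keratins. In dorsal cloaca, Krt19 had 143 FPKM and Krt15 0.070 FPKM, so neighbours differed widely in the younger tissue. Krt5 and Krt6a are 12.8 kb apart and Krt8 and Krt18 23.9 kb apart on opposite strands. Between Krt5 and Krt1 lie the root sheath genes Krt71, Krt74, Krt72 and Krt73, each listed at 0 in every region.

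**Figure D4:**
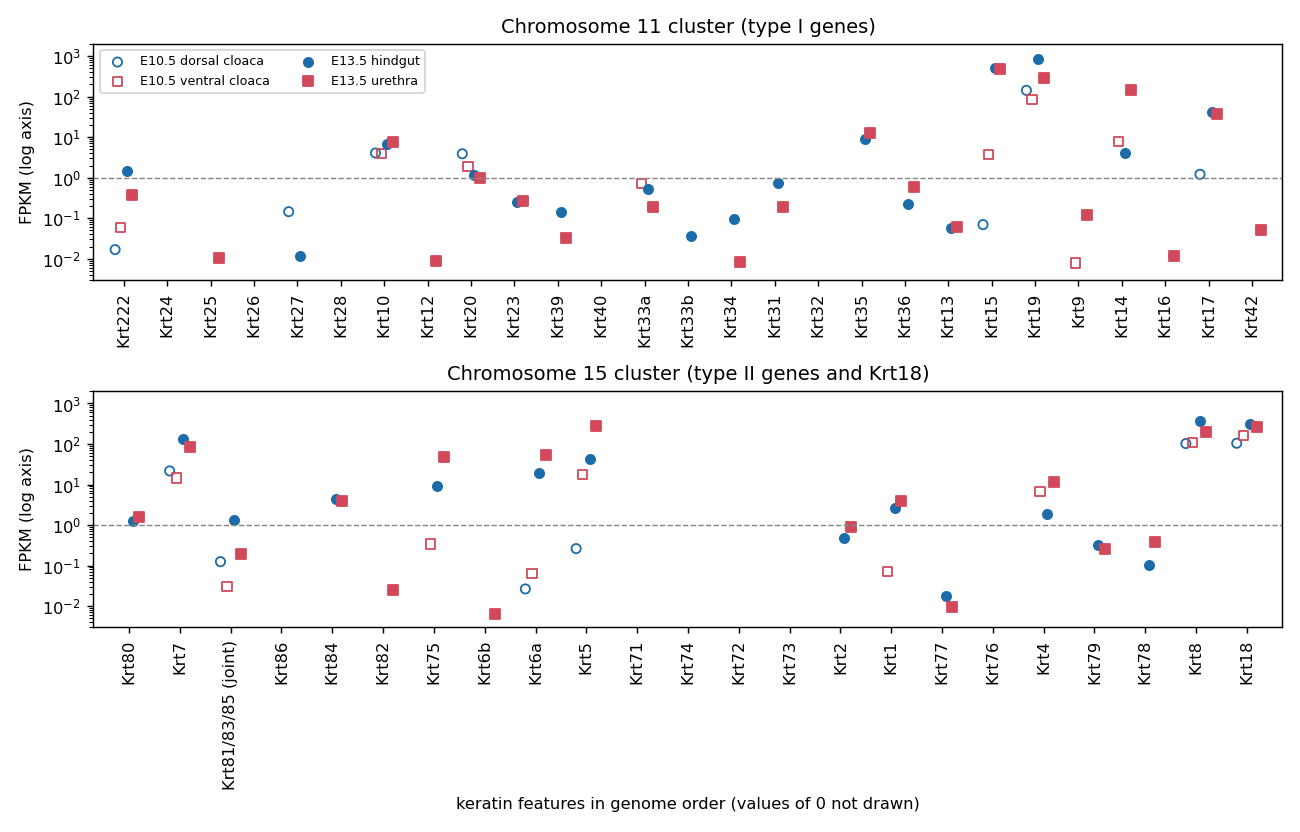
FPKM on a log axis of all 50 keratin features in genome order, chromosome 11 above and chromosome 15 below, open symbols for E10.5 and filled ones for E13.5, with values of 0 not drawn. High values stand at Krt15, Krt19, Krt14 and Krt17 on chromosome 11. On chromosome 15 they stand at Krt7, Krt75, Krt6a, Krt5, Krt8 and Krt18, while Krt71 to Krt73 have no point.

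Some keratin transcripts are alike enough to share reads. In GENCODE M21 transcripts, 44.8% of the 50-base words of Krt6a also occur in another keratin, 40.2% in Krt6b. For Krt14 the share was 13.9%, with Krt16 the closest at 11.0%, for Krt5 7.36%, for Krt17 3.99%, for Krt35 2.70% and for Krt15 0.64%. Krt8, Krt18, Krt19, Krt7, Krt4, Krt75, Krt10, Krt1 and Krt84 shared no such word. Krt6a values are the least certain of the called genes on this count, and the handling of reads with several matches is not stated in these sources.

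Genes that regulate stratified epithelium, link keratin filaments or anchor basal cells are counted against the shares of all kept features called, 10.6% ventrally and 9.62% dorsally at E10.5 and 4.16% and 4.59% at E13.5. At E10.5 the regulator list had 14 kept genes (median 1.04), of which 7 were called ventrally and 1 dorsally. All 14 passed 1 FPKM in ventral cloaca but only 10 in dorsal cloaca. Tfap2a, Tfap2c and Cebpa, among the 7, passed it ventrally only. The minimum thus favoured ventral genes, and the E10.5 count and median of this list are a description and support nothing. At E13.5 it had 17 (median -0.08), with 2 called for each region. Those called on the dorsal side, named after their values were seen, were Grhl3 at E10.5, at 7.08 and 1.52 FPKM, and Klf5 and Elf3 at E13.5. All 3 are epithelial transcription factors. Klf5 had 428 FPKM in hindgut and 164 FPKM in urethra, against 22.6 and 49.7 FPKM in dorsal and ventral cloaca, where it was called ventrally. Elf3 had 25.4 FPKM in hindgut and 7.22 FPKM in urethra. Trp63, the transcription factor that drives basal keratin genes, had 5.94 FPKM in dorsal and 86.7 FPKM in ventral cloaca, and 75.6 FPKM in hindgut against 151 FPKM in urethra. Its log2 difference was 3.66 at E10.5 and 0.98 at E13.5, beside 3.89 and 2.71 for Krt5, 4.87 for Krt14 at E13.5 and -0.13 for Krt15. Tfap2a, an AP-2 factor of surface ectoderm, had 0.062 and 3.59 FPKM at E10.5 and 8.52 and 27.8 FPKM at E13.5, and Tfap2c, a second AP-2 factor, 0.14 and 6.03 FPKM, then 4.72 and 9.85 FPKM. Gata3, of urogenital and skin epithelium, had 7.08 and 38.9 FPKM at E10.5, and 1.08 FPKM in hindgut against 29.5 FPKM in urethra. Linker proteins tie keratin filaments to junctions and to other filaments. Of 11 kept linker genes 2 were called ventrally at E10.5 (median 0.28), and of 13 at E13.5 the urethra had 1 (median 0.05), with none called on the dorsal side, counts that lie near the shares of all features. The 2 at E10.5 were the plakophilin genes Pkp2, at 6.43 and 32.0 FPKM, and Pkp3, at 3.38 and 8.26 FPKM, and the 1 at E13.5 was Pkp1, at 5.86 FPKM in hindgut and 16.8 FPKM in urethra. Of the genes that anchor basal cells to the matrix, 1 of 7 was higher in urethra at E13.5 and none in hindgut (median 0.38). It was Col17a1, a hemidesmosome collagen that spans the basal membrane, at 12.3 and 29.6 FPKM.

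Marker lists describe what else the pieces held. All 8 general epithelial markers passed 1 FPKM in every region, with summed FPKM of 2286, 2116, 1823 and 1246 in dorsal cloaca, ventral cloaca, hindgut and urethra. Hindgut markers passed in 5, 2, 7 and 1 of 9 features and summed to 179, 43.3, 583 and 6.35 FPKM, and Cdx2, a defining gene of gut epithelium, was listed at 0 in the hindgut. Mesenchymal markers passed in 7, 7, 10 and 9 of 12 and summed to 84.0, 95.6, 71.8 and 47.9 FPKM. Markers of mesothelium, a lining that also bears keratins, passed in 0, 2, 1 and 0 of 5, with Wt1 listed at 0 in 3 regions and at 0.080 FPKM dorsally at E10.5. Smooth muscle markers passed in 2, 2, 0 and 2 of 7 and summed to 13.3, 5.54, 2.75 and 4.78 FPKM. Blood features summed to 889, 1181, 37.8 and 81.6 FPKM, while no endothelial or neuronal marker passed. Periderm markers, of which 3 are keratins, passed in 5, 5, 7 and 7 of 7. The part of other cells in the keratin values was not tested.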

How the data were processed

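Per the labels' protocols, RNA came from laser-captured pieces of cresyl violet-stained frozen sections, and picogram inputs were amplified to cDNA. The authors deposited FPKM values, 1 column per region in each of 2 tables, per the file headers. Per the submitters' processing notes, Cufflinks 2.2.1 was used with mm10. Not given in the sources used here are the way in which a region's 4 libraries became 1 value, the aligner, the gene annotation and whether strand was used. A table's age was read from its name. Low values multiplied by exon length were searched for steps of whole reads. At the best of many step sizes, 29.2% came within 0.1 of a whole multiple. Chance gives 20% for a fixed step, not for the best of many. Since the merging of the 4 libraries is not given, whole-read steps need not show, and the depth stays unknown.

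Values were used as deposited. Differences, sums and shares were computed with Python 3.11.15, pandas 2.3.3 and numpy 2.4.6, with a pseudocount of 1 and a minimum of 1 FPKM in either region. The limma fit planned for values per library could not be run with 1 value per region. Figures were drawn with matplotlib 3.10.9. Named genes were the keratins with at least 1 FPKM in any region and, of the other lists, at most 4 with the largest difference. Grhl3, Klf5, Elf3, Vim and the markers Epcam, Cdx2 and Wt1 were named outside this rule. The keratin members and all lists were chosen with earlier results of these data known. Locus starts in the tables count from 0, so 1 was added. The E10.5 result of the basal anchor list is not reported here.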

Additional observations from a re-analysis of the deposited data

Results flagged for a closer look

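Krt15 was singled out because it was called ventrally at E10.5 and its difference had the other sign at E13.5. Opposite signs at the 2 ages were found in 4 of the kept keratins, and the others, Krt8, Krt18 and Krt10, were within 2-fold at both. On the scale of log2(FPKM + 1) the difference of Krt15 was 2.17, higher ventrally, at E10.5 and -0.13 at E13.5, where hindgut and urethra held 517 and 474 FPKM. The later value is near 0 and was 0.10 after quantile normalization. The difference between the ages was not tested, since each age has 1 value per region.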

How the results depend on the processing

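The named keratin differences, 30 over both ages, were taken again under 8 other settings where a setting kept them. Of the 228 values 220 kept their side of the 2-fold rule. Of the others 6 passed the rule only under the other setting and 2 no longer passed it. Using no minimum, a minimum of 5 FPKM, or no features with a shared span or name changes only which features are kept. The 30, 20 and 28 values of these settings were the deposited differences, could not change and are no check. The sign changed in 4, all within 2-fold, namely Krt8 at E10.5 with upper-quartile scaling (-0.01), Krt15 (0.10) and Krt18 (0.04) at E13.5 after quantile normalization, and Krt10 at E10.5 after rescaling (0.0026). No called difference changed sign. With a pseudocount of 5 Krt15 at E10.5 gave 0.80 and Krt17 at E10.5 gave -0.31. The counts of keratins called ventrally ran from 3 to 5 at E10.5 (3 with a pseudocount or a minimum of 5, 5 after rescaling) and stayed at 5 at E13.5 under all settings run. Those called dorsally at E10.5 were 2 with a pseudocount of 0.1, and 0 with a pseudocount of 5 or a minimum of 5 FPKM. Those called for hindgut were 3 with a pseudocount of 0.1, 2 after quantile normalization and 3 after rescaling each column to a sum of 1000000, an alternative chosen after seeing the data. A minimum of 5 FPKM left 4 keratins expressed in dorsal cloaca and 11 in hindgut, and one of 0.1 FPKM gave 27 in urethra. Without features that share a span or name, the hair shaft share in dorsal cloaca was 0%. Upper-quartile scaling moved the median of all features by -0.11 at E10.5 and 0.11 at E13.5. Under it Trp63 at E13.5 passed the rule at 1.10, and Pkp3 at E10.5 no longer passed it at 0.99. With a pseudocount of 5 several called genes outside the keratins no longer passed. Among them at E10.5 were Pkp3 (0.66), Tfap2a (0.76), Tgm1 (0.61) and Grhl3 (-0.89). At E13.5 they included Col17a1 (0.998), Krtdap (0.69) and Cnfn (-0.45). No paired analysis was possible because the tables hold no value per embryo, and leaving out each embryo in turn was not run for the same reason. Unknown depth and the lack of a spread limit every value below about 1 FPKM most.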

Other observations

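The cornified envelope, the protein shell of terminally differentiated skin cells, is built above the keratin layers. Of 16 features of this list, 2 were kept at E10.5, both at least 2-fold higher ventrally, and 6 at E13.5, of which 2 were higher in urethra and 1 in hindgut. Of all kept features 10.6% were called ventrally at E10.5, and 4.16% for urethra and 4.59% for hindgut at E13.5. Both genes kept at E10.5 passed the minimum ventrally only. Lor, which encodes loricrin, a main envelope protein, had 0.59 and 7.99 FPKM in dorsal and ventral cloaca, and 22.3 and 74.6 FPKM in hindgut and urethra. Tgm1, the enzyme gene that cross-links the envelope, was listed at 0 dorsally and had 2.65 FPKM ventrally, then 8.36 and 15.4 FPKM. Krtdap, a keratinocyte differentiation gene, was listed at 0 at E10.5 and had 4.85 and 10.9 FPKM at E13.5, while Cnfn, which encodes cornifelin, had 1.96 FPKM in hindgut and 0.10 FPKM in urethra.

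Other intermediate filament genes include those of muscle, nerve and mesenchyme, and the list also held lamin genes. Of 8 kept at E10.5, 1 was higher ventrally and 2 dorsally (median -0.15), and of 7 at E13.5, 1 was higher in hindgut and none in urethra (median -0.29). The shares of all kept features called were 10.6% ventrally and 9.62% dorsally at E10.5, and 4.16% and 4.59% at E13.5. With so few features kept, these counts are a description and support nothing. Nefh, dorsal at E10.5, and Nefm, the hindgut call, were both just past the rule at -1.01. With a pseudocount of 5 they gave -0.28 and -0.30. Des, the desmin gene of muscle, had 10.9 and 1.76 FPKM in dorsal and ventral cloaca, and Synm, which encodes a desmin partner, 1.54 and 7.58 FPKM. Vim, the vimentin gene of mesenchyme, named here after its values were seen, had 27.4 and 14.8 FPKM at E10.5 and 58.1 and 73.0 FPKM at E13.5.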
